A study of Rattus norvegicus with 12 samples.

Results

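The collagen genes were taken as every row of the gene count table whose symbol is Col, a number, the letter a and a number, which gave 42 of the 30560 genes listed. They were sorted into fibrillar collagens (11 genes), fibril-associated collagens with interrupted triple helices, or FACITs (9), beaded filament-forming collagens (7), basement membrane collagens (4), transmembrane collagens (4), network-forming collagens (3), multiplexins (2), the anchoring fibril collagen Col7a1 and Col26a1, which belongs to none of these. Col4a4, Col4a5 and Col21a1 were not analysed, since no listed gene carried these symbols. Of the genes listed, 7162 had no symbol. RNA came from formalin-fixed, paraffin-embedded sections of the middle region of the heart of 12 male Wistar rats, with 1 library per rat. Surgery was performed at 7 weeks of age. Sham rats (rats 12, 17, 32 and 38) had the chest opened without a ligature and received vehicle. MI rats (rats 36, 57, 61 and 89) had a permanent ligature of the left anterior descending coronary artery, which causes myocardial infarction, and received vehicle, and MI + UA rats (rats 29, 58, 64 and 66) had the same ligature and received urolithin A (UA), a gut microbial metabolite of ellagitannins, by daily gavage. Treatment lasted 8 weeks. By the methods, the UA solution was 50 mg/mL and the first dose followed 24 hours after surgery. Elsewhere in the sources a dose per body weight and a start 1 week after surgery are given instead. The label of rat 66 says MI + UA, whereas a supplementary echocardiography table of the study places it among the rats given vehicle after ligation. It was counted as MI + UA here. The labels do not say how much of a section was scar and how much was spared muscle.

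Collagens are trimers of chains that wind into a triple helix. Types I and III form the load-bearing fibrils of the heart, types V and XI sit inside fibrils and set their diameter, FACITs decorate the fibril surface, type VI forms beaded microfibrils around cells, and type IV forms the sheet under endothelial cells and around cardiomyocytes. After an infarct, fibroblasts replace dead muscle with a collagen scar.

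Between 6228706 and 19031695 reads per rat fell on genes, and collagen genes took 0.169% to 0.212% of them in Sham, 0.318% to 0.515% in MI and 0.297% to 0.589% in MI + UA. The 13 protein-coding genes of mitochondrial DNA, called mitochondrially encoded genes below, took 50.2% to 58.6% of the reads on genes over the 12 rats. Of all counted reads, the part assigned to genes was 46.9% to 48.3% in Sham and 43.3% to 44.8% in MI, without overlap, and 42.9% to 47.2% in MI + UA. Its part in the results was not tested. Values below are CPM, the reads of a gene per 1000000 reads of the library size scaled by edgeR's TMM factors, which compare rats within a gene and not genes with each other, since long transcripts collect more reads. Of the 42 collagen genes, 40 had at least 10 reads over the 12 rats and were tested. The other two were Col6a4, with 2 reads in all, and Col26a1, with 1. Each library is a separate rat, so the spread between libraries holds the variation between animals. In a bulk section, fewer cells of a type and less RNA per cell cannot be told apart.

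The first comparison, MI versus Sham, asks how collagen transcripts stood after infarction, at the end of the treatment period. Of the 40 collagens tested, 20 had an adjusted p under 0.05 in edgeR's quasi-likelihood test, and all 20 were higher in MI. Among all 18182 genes tested, 5.82% were higher by the same call and 5.53% were lower. The median log2 fold change of the 40 collagens was 0.57, against 0.026 for all genes. In 23 collagens every MI rat lay above every Sham rat, and in 0 every MI rat lay below, where 8.12% and 7.56% of all genes did so. The summed level of all collagens was 1897 to 2236 CPM in the Sham rats and 3405 to 4829 CPM in the MI rats. In 11 of the 20 the fitted change was at least 2-fold. Fold changes of different collagens are set side by side as values, and differences between them were not tested. One of the 20, Col2a1, rested on a single rat and is described with the cartilage genes.

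**Figure D1:**
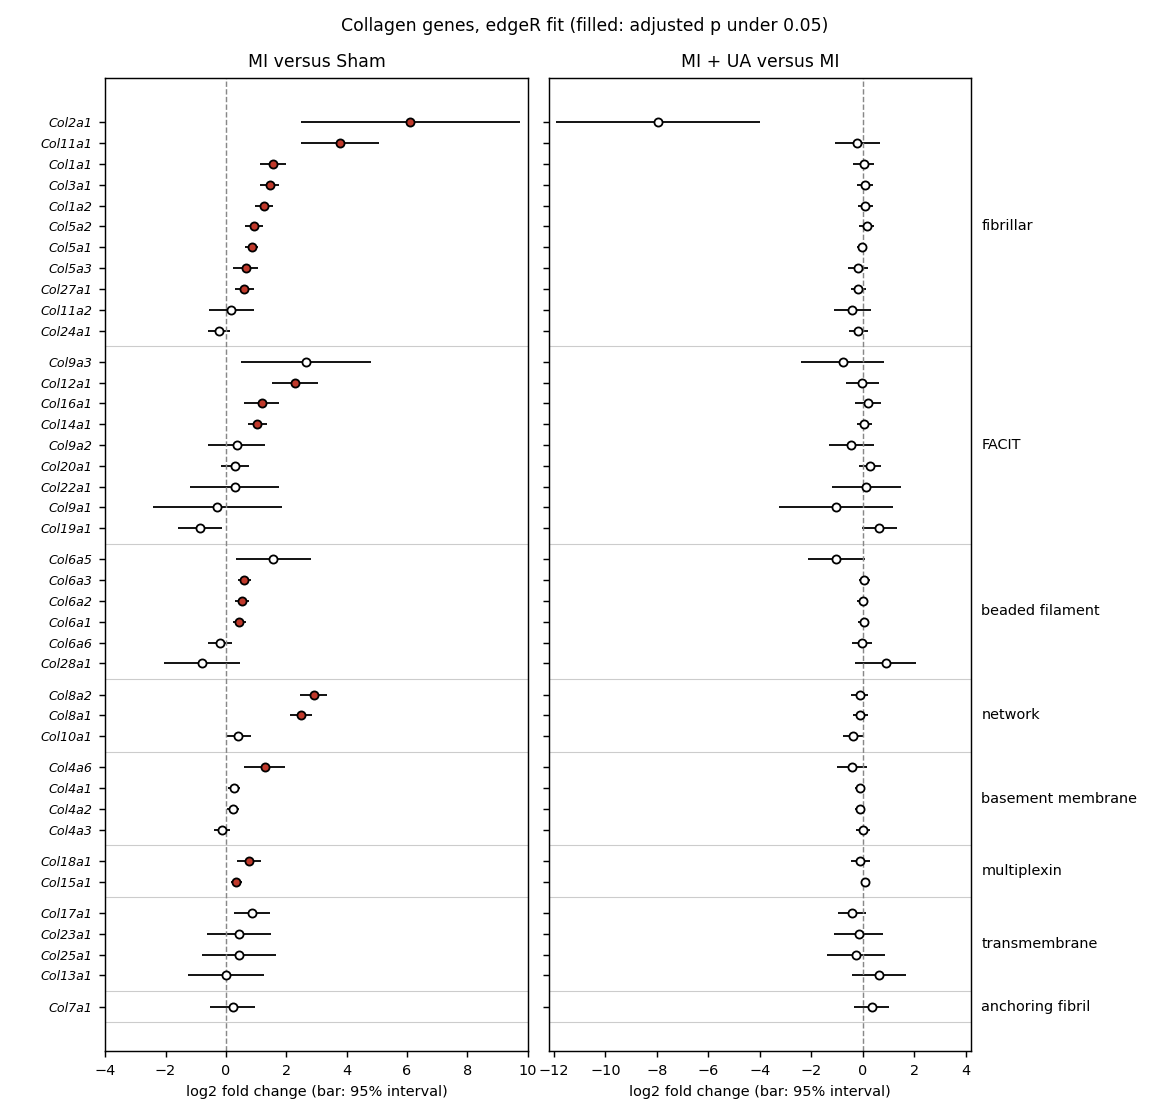
Log2 fold change (x axis) of each of the 40 tested collagens (y axis, grouped by class), with MI versus Sham on the left and MI + UA versus MI on the right; points are edgeR estimates, bars their 95% intervals, and filled points have an adjusted p under 0.05. The 20 filled points on the left all lie above 0, and on the right there are 0 filled points, with Col2a1 at -7.95 far from the rest.

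Fibrillar collagens were the class with the most calls, 9 of 11 tested, with a median log2 fold change of 0.92. Col1a1 (ENSRNOG00000003897) and Col1a2 (ENSRNOG00000011292) encode the 2 chains of type I collagen, the bulk of scar fibrils. Col1a1 stood at 144, 201, 175 and 189 CPM in Sham rats 12, 17, 32 and 38, at 553, 358, 512 and 669 CPM in MI rats 36, 57, 61 and 89, and at 432, 757, 627 and 322 CPM in MI + UA rats 29, 58, 64 and 66. All 8 rats with a ligature lay above the Sham rats, and the MI and MI + UA rats overlapped. The log2 fold change of Col1a1 in MI versus Sham was 1.56 (standard error 0.20, edgeR adjusted p = 4.24e-05), or 2.95-fold. Col1a2 read 175, 196, 185 and 198 CPM in Sham, 439, 354, 469.9 and 546 CPM in MI and 454, 628, 508 and 346 CPM in MI + UA, in the same order of rats. Its log2 fold change was 1.26 (standard error 0.14, adjusted p = 6.73e-06), again without overlap with Sham. The number of Col1a2 reads per Col1a1 read was 0.971 to 1.21 in Sham and 0.794 to 0.989 in MI, ranges that overlapped.

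Col3a1 (ENSRNOG00000003357), the chain of type III collagen, which mixes with type I in the fibrils of compliant tissues, took more reads than any other collagen. It read 374, 495, 472 and 482 CPM in Sham, 1258, 948, 1216 and 1561 CPM in MI and 1146, 1592, 1531 and 969 CPM in MI + UA. The rise in MI was 2.74-fold (log2 fold change 1.45, standard error 0.15, edgeR adjusted p = 3.04e-06). There were 2.28 to 2.65 Col3a1 reads per Col1a1 read in MI and 2.45 to 2.70 in Sham, ranges that overlapped. Together Col1a1, Col1a2 and Col3a1 made up 36.6% to 40.5% of collagen reads in the Sham rats, 48.8% to 57.5% in the MI rats and 51.4% to 57.7% in the MI + UA rats.

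The chains of type V collagen, which start fibrils and limit their width, had smaller fold changes than those of types I and III. Col5a1 went from 38.1, 40.3, 44.1 and 47.2 CPM in Sham to 73.7, 75.0, 76.6 and 81.3 CPM in MI, and read 73.5, 84.0, 81.7 and 60.9 CPM in MI + UA. The MI rats were close together, with a mean of 76.6 CPM and an SD of 3.33 CPM (n = 4), and the log2 fold change was 0.85 (standard error 0.10, edgeR adjusted p = 1.43e-05). Col5a2 read 57.7, 62.2, 53.7 and 53.2 CPM in Sham, 95.1, 92.5, 116 and 125 CPM in MI and 99.6, 163, 123 and 89.5 CPM in MI + UA. The log2 fold change against Sham in MI was 0.92 (adjusted p = 0.000279), and no ligated heart overlapped Sham. Col5a3, another chain of type V found in fewer tissues, had the weakest call of the class. It read 29.6, 31.6, 30.8 and 26.3 CPM in Sham and 33.0, 52.7, 49.6 and 51.2 CPM in MI, so that rat 36 lay just above the Sham rats while the other MI rats stood well apart. Its log2 fold change of 0.65 had an edgeR adjusted p of 0.0368, and the call held in 1 of the 8 fits that each left out 1 Sham or MI rat (largest adjusted p = 0.113). The MI + UA rats read 26.2, 64.1, 40.3 and 34.2 CPM and overlapped both other groups.

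Col11a1 (ENSRNOG00000023148), a chain of type XI collagen, which nucleates the thin fibrils of cartilage and is otherwise expressed in developing tissue and scars, was low in Sham and rose steeply. Sham rats read 1.63, 0.866, 0.505 and 0.715 CPM, and MI rats 23.4, 3.45, 11.3 and 12.8 CPM. Rat 57, the lowest of the MI rats, was still above the highest Sham rat. In MI + UA the values were 5.14, 25.4, 11.1 and 6.41 CPM, so the range inside each ligated group was wide. The log2 fold change in MI versus Sham was 3.78 (standard error 0.62, edgeR adjusted p = 0.000410), or 13.7-fold, and it was 3.30 without rat 36 (adjusted p = 0.00114). Its partner chain Col11a2 was not called, with a log2 fold change of 0.17 (adjusted p = 0.834) that was -0.31 without rat 36.

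Col27a1, a fibrillar collagen of cartilage and other growing tissue, read 11.0, 9.24, 8.42 and 7.27 CPM in Sham and 15.9, 13.2, 12.5 and 13.1 CPM in MI (log2 fold change 0.61, edgeR adjusted p = 0.00958). MI + UA rats read 11.8, 14.4, 12.2 and 10.5 CPM and overlapped the Sham rats. Col24a1, a fibrillar collagen known from bone, was the 1 fibrillar member with a negative log2 fold change, -0.24 (adjusted p = 0.461).

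The FACITs were split, with 3 of 9 higher in MI and the other 6 without a call. Col14a1 (ENSRNOG00000026415), which binds the surface of mature fibrils, read 57.3, 66.5, 63.6 and 61.8 CPM in Sham, 99.0, 90.9, 149.8 and 170.3 CPM in MI and 144, 137, 138 and 114 CPM in MI + UA. The rise in MI was 2.05-fold (log2 fold change 1.04, standard error 0.15, edgeR adjusted p = 0.000116). Col12a1 (ENSRNOG00000058470), a relative of Col14a1 found where tissue bears tension, read 6.52, 6.64, 7.24 and 7.51 CPM in Sham, a narrow range, then 32.6, 21.5, 34.7 and 47.4 CPM in MI. Its rise was 4.93-fold (log2 fold change 2.30, standard error 0.37, adjusted p = 0.000307). MI + UA rats read 20.9, 64.3, 41.3 and 13.8 CPM, so the lowest and the highest ligated hearts both came from this group. There were 0.0998 to 0.122 Col12a1 reads per Col14a1 read in Sham and 0.231 to 0.329 in MI, without overlap, and 0.121 to 0.470 in MI + UA, which overlapped both.

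Col16a1, a FACIT that links fibrils to other matrix, read 2.89, 2.60, 2.19 and 3.10 CPM in Sham, 5.41, 4.55, 6.85 and 7.74 CPM in MI and 6.23, 10.3, 9.34 and 4.05 CPM in MI + UA. The log2 fold change in MI was 1.19 (standard error 0.28, edgeR adjusted p = 0.00764). Of the other 6 FACITs, Col9a1, Col9a2, Col9a3, Col19a1, Col20a1 and Col22a1, none had an adjusted p under 0.05. Col9a3, a chain of the cartilage FACIT type IX, rested on few reads but did not overlap: Sham rats read 0 to 0.168 CPM and MI rats 0.311 to 1.10 CPM (log2 fold change 2.66, edgeR adjusted p = 0.110). The adjusted p of Col9a3 was 0.0410 in the edgeR fit of the 2 groups alone, 0.0392 without MI + UA rat 58 and up to 0.233 without another rat. Col19a1 had the most negative fold change of all tested collagens, -0.86, with overlapping groups and an adjusted p of 0.125.

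Type VI collagen, whose chains assemble into beaded microfibrils next to the cell membrane, rose in all 3 of its main chains, with fold changes below those of types I and III. Col6a3 (ENSRNOG00000019648) read 128, 147, 157 and 172 CPM in Sham, 220.0, 233, 209.9 and 261 CPM in MI and 215, 279, 258 and 209 CPM in MI + UA. The change in MI versus Sham was 0.61 on the log2 scale (standard error 0.11, edgeR adjusted p = 0.000652). Col6a1 read 119, 123, 116 and 118 CPM in Sham, 151, 140.0, 167 and 190.3 CPM in MI and 149, 191, 184 and 138 CPM in MI + UA (log2 fold change 0.45 in MI, adjusted p = 0.00808). Col6a2 read 141, 145, 141 and 144 CPM in Sham, 199.7, 169, 214 and 242 CPM in MI and 184, 227, 232 and 175 CPM in MI + UA (0.53 in MI, adjusted p = 0.00216). For both, the Sham rats were close to each other and no ligated heart reached down to them. The chains that can take the place of Col6a3 were not called: Col6a6 had a log2 fold change of -0.21 (adjusted p = 0.562), and Col6a5, at under 2 CPM in all 12 rats, one of 1.57 (adjusted p = 0.102). Col28a1, a related beaded collagen of peripheral nerve, had a log2 fold change of -0.80 (adjusted p = 0.464), between -1.22 without MI rat 61 and -0.16 without Sham rat 12.

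The 200 bases before the annotated start of Col6a1 are shown because they hold a match to TGANTCA, the letters bound by AP-1 factors. It was the 1 match among the 33 collagens with a promoter window, and 6.36% of all promoters had such a match. The sequence is from RefSeq, build GRCr8, plus strand, chr20:11905490-11905689, and the match is in capitals.

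Col6a1: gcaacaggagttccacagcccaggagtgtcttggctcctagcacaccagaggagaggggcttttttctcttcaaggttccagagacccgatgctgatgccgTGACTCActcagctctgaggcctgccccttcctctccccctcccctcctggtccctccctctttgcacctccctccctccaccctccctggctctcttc

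The smallest adjusted p-values among the collagens were those of type VIII, a short-chain collagen that forms hexagonal networks in vessel walls and in Descemet's membrane of the eye. Col8a1 (ENSRNOG00000039668) read 4.52, 5.20, 3.87 and 5.25 CPM in Sham, 23.0, 22.6, 31.7 and 28.7 CPM in MI and 27.7, 24.4, 28.6 and 18.6 CPM in MI + UA. Every ligated heart was thus far above the highest Sham heart. The rise was 5.58-fold in MI (log2 fold change 2.48, standard error 0.17, edgeR adjusted p = 2.45e-08). Col8a2 (ENSRNOG00000010841), the other chain, read 3.01, 2.60, 1.35 and 2.50 CPM in Sham, 14.0, 21.2, 20.0 and 18.1 CPM in MI and 21.0, 15.7, 17.1 and 12.4 CPM in MI + UA. The rise was 7.48-fold in MI (log2 fold change 2.90, standard error 0.22, adjusted p = 5.24e-08). Col10a1, a network collagen of growth plate cartilage, had a log2 fold change of 0.41 (adjusted p = 0.212). It was 0.20 to 0.54 when 1 rat was left out.

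The type VIII genes lie on different chromosomes, so their promoters are shown side by side as those of chains that rose together. Both stretches are the 200 bases before the RefSeq start (build GRCr8, plus strand), chr11:56246582-56246781 for Col8a1 and chr5:143870569-143870768 for Col8a2, with matches to GGGCGG or its reverse complement CCGCCC, the letters bound by Sp1 factors, in capitals.

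Col8a1: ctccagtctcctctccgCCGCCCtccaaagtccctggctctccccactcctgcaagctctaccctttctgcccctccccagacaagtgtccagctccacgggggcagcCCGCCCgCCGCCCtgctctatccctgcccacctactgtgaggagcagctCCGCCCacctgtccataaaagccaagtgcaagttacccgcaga
Col8a2: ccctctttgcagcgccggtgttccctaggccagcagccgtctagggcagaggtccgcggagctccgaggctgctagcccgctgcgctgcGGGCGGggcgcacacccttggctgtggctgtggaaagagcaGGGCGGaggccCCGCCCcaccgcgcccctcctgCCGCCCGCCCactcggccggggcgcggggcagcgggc

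The basement membrane collagens had 1 of 4 called and a median log2 fold change of 0.26. Col4a1 (ENSRNOG00000016281) and Col4a2 (ENSRNOG00000023972) encode the chains of the type IV trimer present in nearly every basement membrane. Col4a1 read 212, 236, 255 and 256 CPM in Sham, 300.0, 292, 285 and 282 CPM in MI and 277, 314, 267 and 224 CPM in MI + UA. All MI rats lay above all Sham rats, but the gap was narrow and the log2 fold change of 0.27 (standard error 0.09) missed the threshold (edgeR adjusted p = 0.0623). The adjusted p was 0.0434 in DESeq2. In edgeR it was 0.0188 with library size alone, 0.0490 with a minimum of 1 count and 0.0312 with the 2 groups alone. It was 0.0368 without rat 58, 0.0266 without rat 66 and up to 0.175 without another rat. Col4a2 read 186, 204, 245 and 239.8 CPM in Sham, 252, 262, 261 and 255 CPM in MI and 243, 267, 238 and 212 CPM in MI + UA. The MI rats did not overlap Sham, and the log2 fold change was 0.24 in MI (edgeR adjusted p = 0.112). The adjusted p was 0.0292 with library size alone and up to 0.293 when 1 rat was left out. For both genes the MI rats were closer together than the Sham rats.

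Col4a1 and Col4a2 sit head to head on chromosome 16 and are read in opposite directions, with 76 bases between their RefSeq starts. The stretch between the starts (RefSeq, build GRCr8, chr16:84885521-84885596, plus strand, on which Col4a1 is read) is shown because both genes share it, and the capitals mark its match to GGGCGG or CCGCCC.

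Col4a2-Col4a1: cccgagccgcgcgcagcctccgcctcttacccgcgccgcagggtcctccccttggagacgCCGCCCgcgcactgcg

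The number of Col4a2 reads per Col4a1 read stayed between 0.840 and 0.962 over the 12 rats, whatever the group. Col4a3, a chain of the kidney and lung type IV network, was 14.7 to 24.4 CPM in Sham and 16.7 to 19.3 CPM in MI (log2 fold change -0.13, edgeR adjusted p = 0.609, and a log2 fold change of 0.066 when scaled by library size without TMM). Col4a6 (ENSRNOG00000056772), a chain of smooth muscle basement membranes, was the 1 called member of the class. It read 2.13, 4.33, 2.53 and 1.79 CPM in Sham, 7.31, 6.43, 4.77 and 7.41 CPM in MI and 7.48, 5.78, 3.79 and 2.36 CPM in MI + UA. The lowest MI rat was close to the highest Sham rat, and the log2 fold change was 1.29 (standard error 0.33, adjusted p = 0.0123, and 0.0581 without Sham rat 38).

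The multiplexins, basement membrane proteoglycans whose C-terminal fragments restrain vessel growth, both rose. Col15a1 (ENSRNOG00000060381) read 109.6, 126, 117 and 134 CPM in Sham, 151, 148, 164 and 156 CPM in MI and 173, 172, 181 and 138 CPM in MI + UA. The log2 fold change in MI, 0.35 (standard error 0.09, edgeR adjusted p = 0.0150), was the smallest among the 20 calls, and it was called in 5 of the 8 fits that each left out 1 rat of the comparison (largest adjusted p = 0.0531). Col18a1, the source of endostatin, read 13.4, 15.9, 20.5 and 24.1 CPM in Sham, 32.5, 26.3, 31.7 and 33.3 CPM in MI and 30.3, 40.3, 27.5 and 18.7 CPM in MI + UA, with a log2 fold change of 0.75 in MI (adjusted p = 0.0120). Without Sham rat 12 its adjusted p was 0.0531.

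The 4 transmembrane collagens had no call. Col17a1, known from hemidesmosomes of the skin, read 2.51, 3.03, 1.68 and 1.31 CPM in Sham, 2.92, 4.86, 2.70 and 5.21 CPM in MI and 2.86, 2.70, 2.71 and 3.15 CPM in MI + UA. The Sham and MI rats overlapped, and the log2 fold change of 0.86 had an edgeR adjusted p of 0.0589. The adjusted p was 0.0490 in DESeq2, 0.0387 in edgeR without rat 36 and up to 0.217 without another rat. Leaving out 1 rat gave log2 fold changes of 0.67 to 1.07. Col13a1, Col23a1 and Col25a1 stood at mean levels of 0.490 to 0.762 CPM in Sham, with log2 fold changes from -0.01 to 0.44. Col7a1, the anchoring fibril collagen of skin, read 0.878, 1.30, 0.842 and 1.43 CPM in Sham, 1.32, 1.41, 1.25 and 1.30 CPM in MI and 1.66, 2.70, 1.08 and 1.35 CPM in MI + UA (log2 fold change 0.22 in MI, adjusted p = 0.781).

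**Figure D2:**
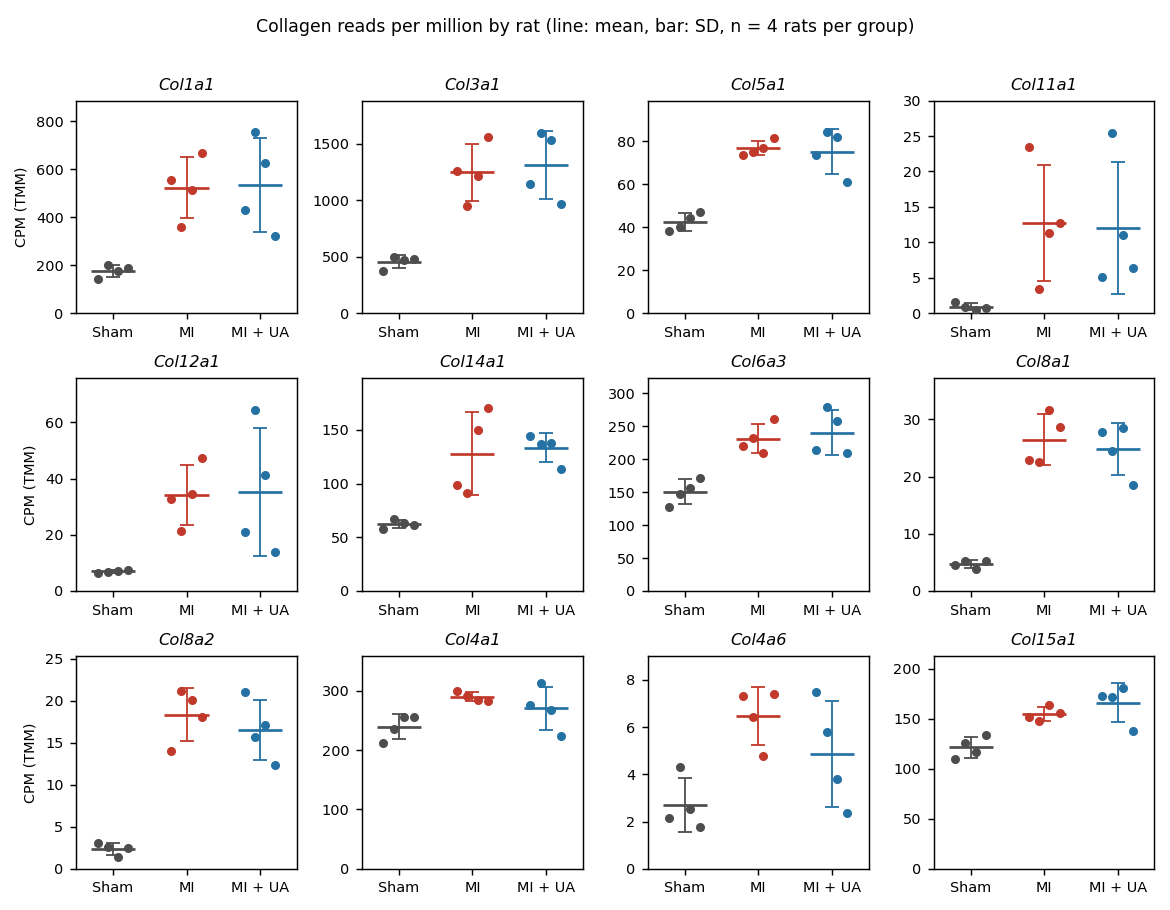
TMM-scaled CPM (y axis, from 0, own scale in each panel) of 12 collagens in each of the 12 rats; points are rats, lines group means and bars SD (n = 4 per group). In the Col1a1, Col3a1, Col12a1, Col8a1 and Col8a2 panels all MI and MI + UA rats sit above the Sham rats, while in the Col4a1 panel the MI + UA rats overlap them.

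The make-up of the collagen reads was set side by side by class. Fibrillar chains took 44.5% to 47.5% of collagen reads in Sham, 56.0% to 63.5% in MI and 57.97% to 64.6% in MI + UA. The share of basement membrane chains was 21.3% to 24.0% in Sham, 11.6% to 16.99% in MI and 11.4% to 14.3% in MI + UA. The basement membrane share was lower in every ligated heart than in every Sham heart, although no chain of the class had a negative log2 fold change past the threshold. Beaded chains went from 19.9% to 21.9% in Sham to 14.6% to 16.4% in MI, and multiplexins from 6.34% to 7.06% to 3.93% to 5.12%. Network collagens took 0.442% to 0.661% in Sham and 1.07% to 1.47% in MI, and FACITs 3.65% to 4.01% and 3.62% to 4.95%, with overlap for FACITs alone among these. In all of these classes the MI and MI + UA shares overlapped.

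**Figure D3:**
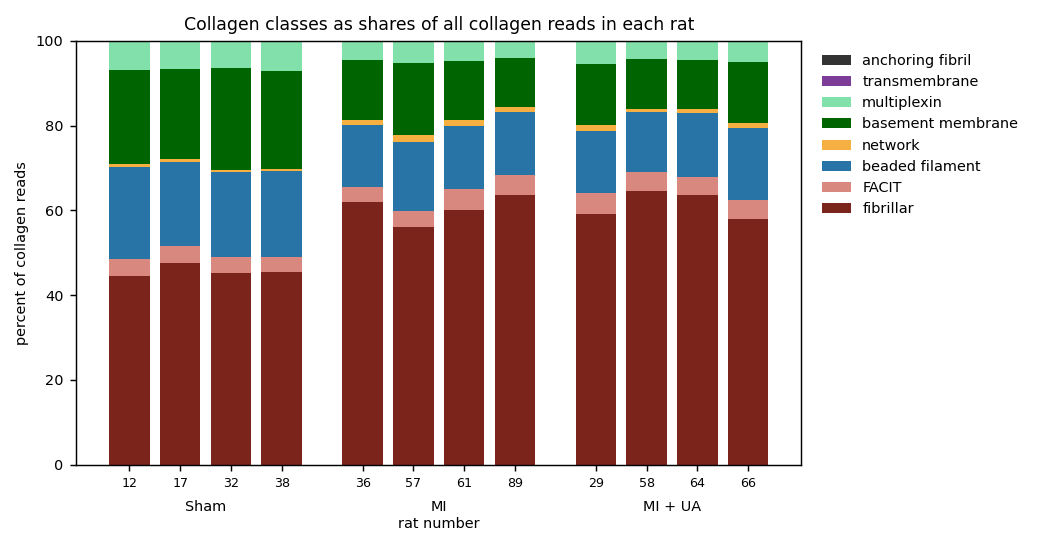
Stacked bars of the percent of all collagen reads (y axis, 0 to 100) taken by each collagen class in each of the 12 rats (x axis, by group and rat number). The fibrillar part covers 44.5% to 47.5% of the Sham bars and 56.0% or more of the MI and MI + UA bars, and the basement membrane part narrows from at least 21.3% to at most 16.99%.

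The second comparison, MI + UA versus MI, asks whether collagen transcripts differed with UA in hearts with the same ligature. Of the 40 collagens tested, 0 had an adjusted p under 0.05 in edgeR's test, as had 0% of all 18182 genes, and DESeq2 also gave 0 collagens. An unadjusted p under 0.05 was reached by 1 collagen, Col2a1, and by 3.79% of all genes. In all 40 collagens the MI and MI + UA rats overlapped, where 2.34% of all genes did not. The log2 fold change was above 0 in 15 collagens and below 0 in 25, with a median of -0.07, and above 0 in 51% of all genes. A missed threshold does not show that the groups were alike, and the intervals say how large a difference these 8 rats leave room for.

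For the 19 collagens that rose in MI, Col2a1 aside, fold changes with UA ran on the log2 scale from -0.42 (Col4a6) to 0.21 (Col16a1). The change was above 0 in 9 and below 0 in 10, and the smallest unadjusted edgeR p among them was 0.156. Leaving out 1 rat moved both ends, to between -0.78 and -0.155 for Col4a6 and between 0.017 and 0.44 for Col16a1. For Col1a1 the log2 fold change was 0.03, with a 95% interval from -0.38 to 0.44, and for Col3a1 it was 0.07, from -0.23 to 0.38. Among all 19, the interval that reached lowest was that of Col11a1, to -1.09, and the one that reached highest was that of Col16a1, to 0.71. Col8a1 was at -0.11 (interval -0.39 to 0.18) and Col8a2 at -0.13 (interval -0.48 to 0.21), and neither interval came near the Sham level, from which the MI rats stood 2.48 and 2.90 above on the log2 scale. With rat 66 counted as an MI rat, both values turned positive, 0.12 and 0.10. The 4 basement membrane chains all had negative values, from -0.42 for Col4a6 to -0.01 for Col4a3, and so had the 3 network chains, from -0.39 for Col10a1 to -0.11 for Col8a1, in each case without a call. With rat 66 counted in MI, all 4 basement membrane chains turned positive, from 0.0055 for Col4a2 to 0.070 for Col4a6, and Col10a1 was the 1 network chain still below 0. Among the 40 collagens, the next smallest unadjusted p-values after Col2a1, from the edgeR model fitted across all genes, were 0.0506 for Col10a1 (log2 fold change -0.39), 0.0633 for Col6a5 (-1.03) and 0.0692 for Col19a1 (0.64). Leaving out 1 rat gave -0.52 to -0.18 for Col10a1, -1.36 to -0.73 for Col6a5 and 0.50 to 0.79 for Col19a1.

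Set against Sham, the third comparison, the MI + UA rats had 16 of 40 collagens called, all 16 higher, where 5.16% of all genes were higher. These 16 were all among the 20 called in MI, and both comparisons use the same Sham rats. The other 4, higher in MI by the test and not called in MI + UA, were Col2a1, Col5a3 (edgeR adjusted p = 0.173), Col27a1 (adjusted p = 0.0780) and Col4a6 (adjusted p = 0.114). This is not a difference between MI and MI + UA, whose direct test gave unadjusted p-values of 0.320, 0.211 and 0.156 in edgeR for the last 3. Without overlap, 15 collagens were higher in MI + UA than in Sham, against 7.83% of all genes. Col18a1 was called in 2 of the 8 fits that each left out 1 Sham or MI + UA rat. Leaving out 1 rat also gained calls, for Col4a6 without rat 66 (edgeR adjusted p = 0.0133) or Sham rat 17 (0.0484), for Col27a1 without rat 66 (0.0472) or Sham rat 12 (0.0342), and for Col5a3 without rat 29 (0.0308). Col1a1 stood 3.01-fold above Sham in MI + UA and 2.95-fold in MI, Col12a1 4.85-fold and 4.93-fold, and Col8a2 6.82-fold and 7.48-fold.

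Certain rats were often the highest or the lowest of their group. Over the 20 collagens called in MI, rat 89 was the highest MI rat in 13 and rat 57 the lowest in 13, ties left out. In MI + UA, rat 58 was the highest in 13 and rat 66 the lowest in 17. The share of reads on mitochondrially encoded genes was 57.6% in rat 57 and 56.8% in rat 66, the highest of their groups, and 50.2% in rat 58, the lowest of its group. It was 53.0% in rat 89, however, and the lowest MI share, 50.2%, was that of rat 61, which was the highest MI rat in 2 of the 20. The part of this share in the order was not tested. Rat 66, whose group the sources give in different ways, also had the deepest library.

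Col2a1 (ENSRNOG00000058560), the chain of type II collagen and the defining fibril of cartilage, had 405 reads in MI rat 36, or 29.6 CPM. The other 11 rats had 4 reads in all, with 3 other MI rats at 0. Its log2 fold changes, 6.11 in MI versus Sham (edgeR adjusted p = 0.0254) and -7.95 in MI + UA versus MI (unadjusted p = 0.000438, adjusted p = 1.00), both came from that 1 library, and without rat 36 the gene had too few reads to be tested. The call in MI versus Sham was also lost when any 1 Sham rat was left out (edgeR adjusted p = 0.0721 to 0.0839), with a log2 fold change of 9.36 without Sham rat 12, which held 3 of the 4 reads outside rat 36, and of 5.67 to 5.82 without one of the others. Counting rat 66 in MI gave an adjusted p of 0.0868. The MI and Sham rats overlapped. Rat 36 was also the highest of the 12 rats for other cartilage genes. It had 126 Acan reads, the cartilage proteoglycan, at 9.21 CPM against at most 2.00 CPM elsewhere, and 33 Hapln1 reads, the link protein, at 2.41 CPM against at most 0.489 CPM. Col11a2, at 5.04 CPM against at most 3.09 CPM, and Col10a1, at 8.92 CPM against at most 6.43 CPM, were highest in rat 36 too. So were Comp (11.3 against at most 7.17 CPM), Snorc (0.658 against at most 0.271 CPM) and Col9a2 (1.83 against at most 1.68 CPM). Col9a1 at 0.292 CPM, Col9a3 at 1.10 CPM, Col11a1 at 23.4 CPM and the cartilage marker Cnmd at 0.0731 CPM were not highest in rat 36. Neither was Sox9, the cartilage transcription factor, at 19.9 CPM. The cartilage markers Matn1 and Matn3, matrilins, had 1 and 0 reads in rat 36.

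**Figure D4:**
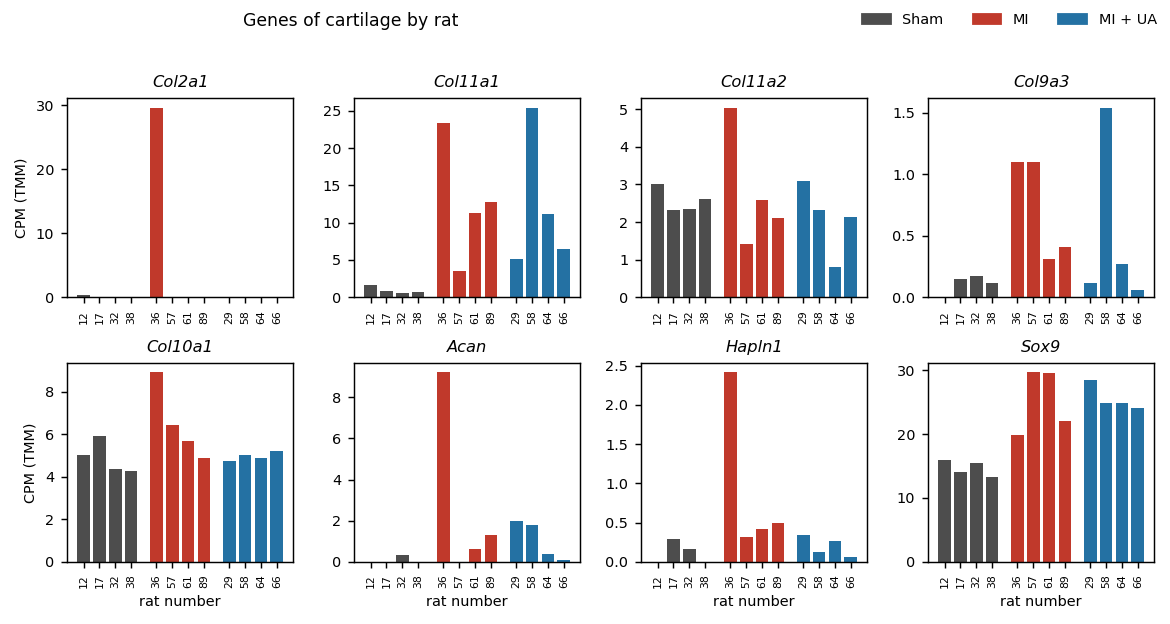
TMM-scaled CPM (y axis, from 0, own scale in each panel) of 5 collagens known from cartilage and of Acan, Hapln1 and Sox9, 1 bar per rat, coloured by group. Col2a1 is 29.6 in rat 36 and at most 0.376 in the other rats, Acan and Hapln1 peak in the same rat, and Col11a1 is raised in all 8 ligated hearts.

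The genes that make, trim, join and hold collagen were counted from lists of the pathway. Over all genes tested, 5.82% were higher in MI and 5.53% lower. Among 21 tested genes of chain modification and export in the endoplasmic reticulum, 3 were higher in MI and 0 lower: Plod2 (log2 fold change 1.38, edgeR adjusted p = 2.45e-08), a lysyl hydroxylase whose product directs the bonds of scar collagen, P3h3 (0.85) and Fkbp10 (0.78). The collagen chaperone Serpinh1 was not called (0.21, adjusted p = 0.364). Of 8 genes of propeptide removal, 3 were higher, Adamts2 (0.88) and Bmp1 (0.76), which cut the N- and C-propeptides of fibrillar chains, and Pcolce (0.72), which enhances C-propeptide removal. Of 6 cross-linking enzymes, 5 were higher, led by the lysyl oxidases Loxl1 (1.64, adjusted p = 2.10e-06), Loxl2 (1.17) and Lox (1.11).

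Of 11 collagen receptors, 4 were higher (5.82% of all genes), among them Itga11 (log2 fold change 1.74, edgeR adjusted p = 1.39e-05), the integrin chain of fibroblasts for fibrillar collagen, the uptake receptor Mrc2 (0.82) and the receptor kinase Ddr2 (0.42). Of 10 genes of collagen breakdown and its inhibitors, 7 were higher. The largest of these changes was that of Mmp9, a gelatinase (5.54, adjusted p = 0.0396), with a wide standard error of 1.67. Next were Timp1 (1.86, standard error 0.24), an inhibitor of these proteases, and Ctsk (1.18, standard error 0.24), a lysosomal collagenase. Of 13 partners of fibril assembly, 12 were higher, with Comp (5.25, adjusted p = 1.93e-06), Thbs4 (3.84) and Postn (2.65) ahead and decorin, Dcn, the 1 without a call. None of these 6 lists had a lower gene in MI, and none had a call in MI + UA versus MI, where 0 of the 18182 genes were called.

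Markers of some cell types differed between MI and Sham, and those of others had few calls or 0, where 5.82% of all genes were higher and 5.53% lower. Of 10 fibroblast markers 7 were higher in MI, and their summed level was 1049 to 1291 CPM in Sham, 1331 to 1858 CPM in MI and 1449 to 1819 CPM in MI + UA. Of 8 myofibroblast markers 7 were higher (60.1 to 81.7 CPM in Sham, 194 to 266 CPM in MI, 163 to 285 CPM in MI + UA), and of 8 macrophage markers 7 (121 to 152, 246 to 397 and 206 to 424 CPM). Of 9 cardiomyocyte markers 8 were lower, from 19487 to 23519 CPM in Sham to 14084 to 15256 CPM in MI and 14208 to 17077 CPM in MI + UA. Endothelial markers, whose cells make much of the type IV collagen, had 1 of 7 lower (631 to 709, 516 to 612 and 507 to 591 CPM), and pericyte and smooth muscle markers 2 of 8 higher. Of 6 Schwann cell markers 2 were higher (121 to 142, 149.5 to 188 and 202 to 495 CPM), and of 5 mesothelial markers 0. The Schwann sums of the MI and MI + UA rats did not overlap, with an MI + UA median of 204 CPM. All 6 Schwann markers had a log2 fold change above 0 in MI + UA versus MI, where 0 were called. Of 6 chondrocyte markers 4 were higher (13.5 to 16.2, 31.1 to 43.6 and 27.9 to 37.6 CPM), and Sox9 was the largest part of these sums in each of the 12 rats, at 13.2 to 15.9 CPM in Sham and 19.9 to 29.6 CPM in MI. Without rat 36, Sox9 and Comp were still called, and the edgeR adjusted p went from 0.0173 to 0.138 for Acan and from 0.0372 to 0.264 for Hapln1. The part of the cell make-up in the collagen changes was not tested.

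RefSeq promoter windows (build GRCr8) were at hand for 33 of the 42 collagens, 14 of them among the 20 called in MI. Of the called collagens, Col1a1, Col2a1, Col3a1, Col6a2, Col12a1 and Col14a1 had no window. Letters were searched on both strands of the 250 bases before the start. GGGCGG was present in 9 of the 14 and in 9 of the other 19, against 32.4% of 27457 promoters. CCAAT was present in 3 of the 14 and 8 of the 19 (34.3% of all promoters), TATAAA in 1 and 3 (13.1%), and TGANTCA in 1, Col6a1, and 0 (6.36%). No match of one motif shared bases with a match of another, and 2 pairs of matches of the same motif did, as in Col8a2. A match is a run of letters and not a site shown to be bound.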

How the data were processed

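The authors mapped read pairs from ribosomal RNA-depleted, strand-specific libraries to rat build mRatBN7.2 with STAR 2.6.1c and counted reads per Ensembl gene with HTSeq, per the labels, and deposited raw counts for 12 rats. The labels also call the RNA polyA. The strand setting of the counting is not given in the sources used here, so reads of overlapping or antisense genes may be mixed. A further MI + UA library, which the authors left out as an outlier, was not analysed here. The 5 summary lines of the counting were left out of library sizes.

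A gene needed a total of 10 counts or more to enter the test with edgeR 4.0.16 (R 4.3.3), which used TMM factors, a quasi-likelihood fit of the 3 groups together and Benjamini-Hochberg adjustment over all 18182 genes at 0.05. Of these, 2735 have no symbol. The steps were tested on simulated counts. DESeq2 1.42.0 was an alternative, as were edgeR with DESeq2 size factors, with TMM factors computed after removal of the mitochondrial genes, or with library size alone, filterByExpr, a minimum of 1 count, fits of 2 groups, rat 66 counted in MI, and leaving out each rat. No 2 libraries held identical counts. Rat-by-rat values are given for collagens with an adjusted p under 0.05 in MI versus Sham or MI + UA versus MI, for those with an unadjusted p under 0.05 in the latter for the member of each class with the highest mean CPM, and for Col4a2, chosen after its values were seen. Other collagens are given by class, and up to 3 genes per pathway list are named by size of change; other genes named were chosen after their values were seen. The members and lists were chosen with earlier results of these data known. Promoter sequences are from RefSeq (GRCr8), matched by symbol.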

Additional observations from a re-analysis of the deposited data

Results flagged for a closer look

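Within each group of 4 rats, the highest or lowest value was compared with its nearest neighbour, as the gap divided by the range of the group, for 23 collagens and the library measures. Of 78 groups examined, 6 had a ratio above Dixon's critical value, where chance gives about 3.9.

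Col2a1 stood apart in all 3 groups with a ratio of 1.00, in MI rat 36 at 29.6 CPM, in Sham rat 12 at 0.376 CPM and in MI + UA rat 66 at 0.0563 CPM, each time with the other 3 rats at 0. The values in rats 12 and 66 came from 3 reads and 1 read. With 3 rats at 0 the ratio is 1.00 whatever the remaining value. These flags of Col2a1 therefore cannot be set against the number given by chance. Col2a1 was also examined because of its call in MI versus Sham, which rested on rat 36. Col5a3 was low in MI rat 36, at 33.0 CPM with a ratio of 0.844. The share of counted reads on genes was low in MI rat 61, at 43.3% with a ratio of 0.853, and in MI + UA rat 58, at 42.9% with a ratio of 0.886. Rat 58 was also the MI + UA rat with the highest value in 13 of the 20 collagens called in MI.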

How the results depend on the processing

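No paired analysis was possible because each rat belongs to a single group and rat numbers are not shared. The number of collagens called in MI versus Sham was 20, between 18 and 23 under the other settings and between 16 and 22 when 1 rat was left out. It was 16 in MI + UA versus Sham, between 15 and 17 under the other settings and 15 to 18 without 1 rat. In MI + UA versus MI it was 0 throughout, except that a minimum of 1 count gave 1 (Col2a1, adjusted p = 0.00562). Of the 20 collagens, 15 were called in every alternative, and the exceptions were Col2a1, Col5a3, Col15a1, Col18a1 and Col4a6. DESeq2 gave no adjusted p for Col2a1, and without rat 36 or under filterByExpr it was not tested. Col2a1 had an adjusted p in 17 of the 20 alternatives and was called in 12. Scaling by library size alone moved the median log2 fold change of all genes by 0.19 in MI versus Sham and by 0.15 in MI + UA versus Sham.

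No called fold change turned sign under any of these settings, and all turns were in collagens without a call. In MI versus Sham, library size alone gave 0.0659 for Col4a3 and 0.19 for Col13a1, and rat 66 counted in MI gave -0.0112 for Col22a1 and 0.0485 for Col13a1. Leaving out 1 rat spanned -0.0093 to 0.67 for Col22a1, -1.15 to 0.49 for Col9a1, -0.31 to 0.35 for Col11a2, -0.18 to 0.28 for Col13a1 and -0.019 to 1.21 for Col25a1. In MI + UA versus MI, the sign turned in 23 of 40 collagens. Rat 66 counted in MI gave 0.18 for Col11a1, 0.46 for Col12a1, 0.20 for Col18a1, 0.047 for Col4a1, 0.0055 for Col4a2, 0.051 for Col4a3, 0.070 for Col4a6, 0.12 for Col5a1, 0.098 for Col6a2, 0.12 for Col8a1, 0.10 for Col8a2 and 0.051 for Col9a3. DESeq2 gave 0.040 for Col12a1, and library size alone -0.00075 for Col6a1. Leaving out 1 rat there spanned -0.88 to 0.26 for Col11a1, -0.68 to 0.066 for Col11a2, -0.50 to 0.26 for Col12a1, -0.069 to 0.23 for Col14a1, -0.30 to 0.067 for Col18a1, -0.19 to 0.21 for Col1a1, -0.056 to 0.23 for Col1a2, -0.31 to 0.54 for Col22a1, -0.30 to 0.21 for Col23a1, -0.039 to 0.20 for Col3a1, -0.051 to 0.029 for Col4a3, -0.095 to 0.054 for Col5a1, -0.051 to 0.25 for Col5a2, -0.054 to 0.11 for Col6a1, -0.098 to 0.070 for Col6a2, -0.026 to 0.12 for Col6a3, -0.18 to 0.14 for Col6a6 and -0.18 to 0.021 for Col8a1. For Col2a1 in MI + UA versus Sham, at -1.84 with all rats, it spanned -3.13 to 1.40. The cause of these turns was not tested. With 4 rats per group, collagens under 1 CPM had intervals in MI versus Sham wider than 2-fold to each side.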
